A study of Mus musculus with 42 samples.

Results

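d3 G- cells were compared with d2 cells. d3 G- cells are mouse cells on the 3rd day of differentiation towards anterior definitive endoderm (ADE) that were sorted as negative for a reporter of Gsc, and d2 cells are the cultures 1 day earlier. The arrays were chosen by their labels: 3 arrays of d3 G- and 3 arrays of d2, 6 of the 42 arrays of the series. All cells came from 1 dual reporter line of mouse embryonic stem cells (ESCs), in which GFP reports Gsc and a red fluorescent protein reports Hhex. ESCs were grown with LIF. The paper describes differentiation driven by cytokines and growth factors added on a schedule, so the factors go with the day. Neither group received an inhibitor before or during differentiation. The labels describe independent experiments for each condition, and each of the 3 arrays of a group stands for 1 of them. d2 RNA came from unsorted cultures and d3 G- RNA from cells that had passed through a sorter, so time and sorting cannot be told apart. ESCs, d3 G+ cells (reporter-positive, same day), d4 G- and d5 G- cells are given beside the comparison as levels only. The values are log2 intensities of Agilent one-colour arrays, background-corrected and quantile normalised by the authors.

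As background, pluripotent cells that exit the naive state pass through a formative epiblast state before gastrulation. At gastrulation, Nodal, Wnt, BMP and FGF signals turn epiblast cells into primitive streak, where T-box factors and Mixl1 are switched on, E-cadherin gives way to N-cadherin and the cells become mesoderm or definitive endoderm. Gsc encodes a homeobox repressor of the anterior primitive streak, and the reporter of Gsc is used in this system to separate cells that have entered that state from those that have not.

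Between 29626 and 39603 of the 55681 probes were above background on the 6 arrays, with the highest numbers on the replicate 3 arrays of both groups (37549 for d2 and 39603 for d3 G-). No probe was marked as saturated. Replicates 1 and 2 were hybridised on other slides than replicate 3. Correlations between arrays over all probes lay between 0.9726 and 0.9918. d3 G- replicate 2 correlated better with d2 replicate 1, which lay on the same slide (0.9905), than with d3 G- replicate 1 (0.9866). d3 G- replicate 3 correlated about as well with d2 replicate 3, which lay on another slide (0.9906), as with d3 G- replicate 2 (0.9904). Among the genes higher in d3 G-, replicate 1 had the highest d3 G- value for 175 of 221 genes, and d2 replicate 2 had the lowest d2 value for 181.

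More genes were higher than lower in d3 G- cells. Of 22201 genes with a RefSeq accession, 228 were higher (1.03%) and 65 were lower (0.293%), where a gene was called with an adjusted p (limma, Benjamini-Hochberg over all probes) of at most 0.01 and a log2 fold change (FC, d3 G- minus d2) of at least 1.5 in either direction. The median log2 FC was 2.13 over the genes called higher, -1.80 over those called lower and 0.001 over all genes. For 221 of the higher and 60 of the lower genes the brightest probe itself passed, and each of these differed the same way in all 9 pairs of a d3 G- and a d2 array. Expression was already above background on all 3 d2 arrays for 161 of the genes called higher, and on none of them for 10. The counts depended on single arrays: 151 genes were higher without d2 replicate 2 and 138 without d3 G- replicate 1, and 33 genes were lower without d3 G- replicate 1 and 149 without d3 G- replicate 2. A fit of the 6 arrays alone called 111 genes higher and 37 lower.

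**Figure D1:**
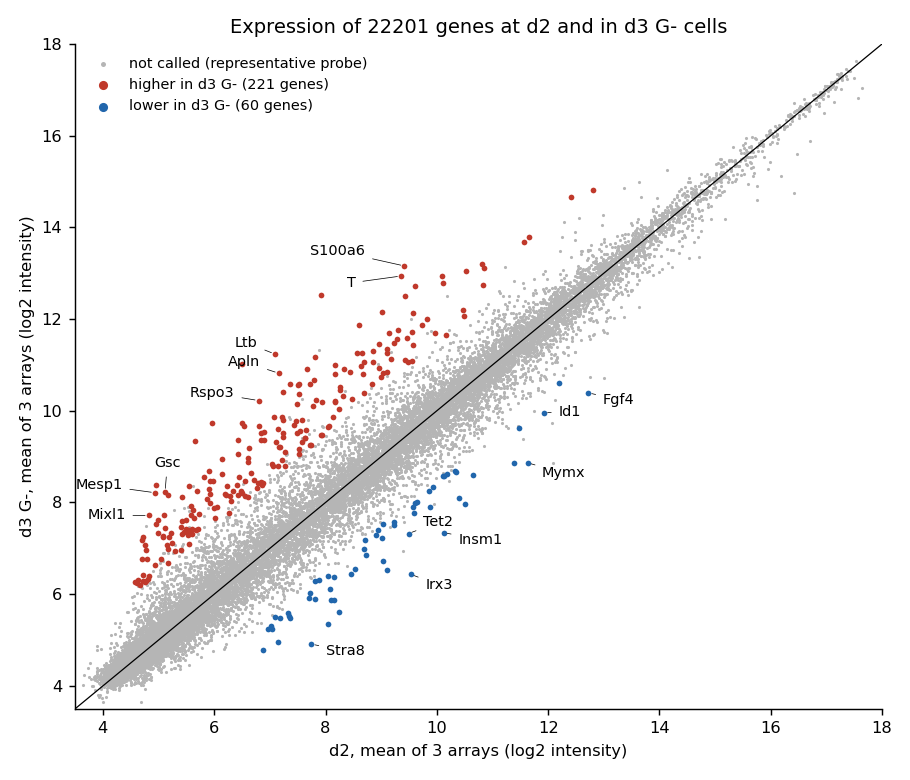
Mean log2 intensity of each gene's brightest probe over 3 d2 arrays (x axis) and 3 d3 G- arrays (y axis); the line marks equal values. The 221 genes called higher (red) lie from 1.5 to 4.6 above the line at d2 means from 4.58 to 12.81, while the 60 called lower (blue) lie at most 3.1 below it.

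The gene of the reporter was itself higher in the reporter-negative cells than at d2. Gsc measured 5.14, 4.69 and 5.52 on the d2 arrays, of which 1 was above background, and 7.85, 8.10 and 8.74 on the d3 G- arrays, all of them above background. The groups did not overlap, and the log2 FC was 3.11 ± 0.47 (SE, n = 3 and 3; limma adjusted p = 4.78e-05). d3 G+ cells measured 11.28, 12.08 and 11.97, above every d3 G- array, so Gsc transcript ordered the populations as the sort did, with d3 G- between d2 and d3 G+. In bulk RNA a few cells with much Gsc RNA and many cells with little cannot be told apart, here and for every gene below. The reporter protein was not measured on the arrays. Hhex, the gene of the second reporter and a homeobox factor of anterior endoderm, had a log2 FC of 0.15 ± 0.40 (adjusted p = 0.991) and was above background on all 6 arrays. The pluripotency factors Pou5f1 and Sox2 were above background on all 6 arrays, with log2 FCs of -0.04 ± 0.63 (adjusted p = 0.999) and -0.58 ± 0.25 (adjusted p = 0.258). Sox2 was lower on every d3 G- array (10.32 to 10.66) than on every d2 array (10.91 to 11.27) and lower again in d3 G+ cells (7.84 to 8.41). Its difference from d2 did not pass the test.

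The promoter of Gsc is shown because the sort read this gene, and those of Ltb, Ly6c1, Irx3 and Stra8 because these had the largest changes in each direction among named genes with a RefSeq promoter. Each runs 5′ to 3′ on the strand of the gene, from 250 bases before to 50 after the annotated start (RefSeq, build GRCm38.p6): Gsc at chr12:104473187-104473486, minus strand, Ltb at chr17:35194257-35194556, plus strand, Ly6c1 at chr15:75048788-75049087, minus strand, Irx3 at chr8:91801605-91801904, minus strand and Stra8 at chr6:34920698-34920997, plus strand. Capitals mark matches on either strand to motifs of several factors. Orphan nuclear receptors are known to bind AAGGTCA. The T-box family is known to bind TCACACC. Factors that carry Wnt signals to genes are known to bind ATCAAAG. The general transcription machinery is known to bind TATAAA.
Gsc: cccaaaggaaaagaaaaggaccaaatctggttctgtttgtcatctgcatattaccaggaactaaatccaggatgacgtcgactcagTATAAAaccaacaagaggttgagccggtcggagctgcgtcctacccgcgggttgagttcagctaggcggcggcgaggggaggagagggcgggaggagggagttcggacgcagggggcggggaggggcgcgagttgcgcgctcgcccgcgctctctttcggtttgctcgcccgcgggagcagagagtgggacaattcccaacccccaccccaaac
Ltb: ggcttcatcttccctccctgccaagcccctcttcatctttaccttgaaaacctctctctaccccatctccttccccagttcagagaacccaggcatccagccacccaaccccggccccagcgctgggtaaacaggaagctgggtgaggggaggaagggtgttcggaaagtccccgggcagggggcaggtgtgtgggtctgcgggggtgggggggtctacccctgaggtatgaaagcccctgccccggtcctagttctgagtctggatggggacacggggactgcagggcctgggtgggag
Ly6c1: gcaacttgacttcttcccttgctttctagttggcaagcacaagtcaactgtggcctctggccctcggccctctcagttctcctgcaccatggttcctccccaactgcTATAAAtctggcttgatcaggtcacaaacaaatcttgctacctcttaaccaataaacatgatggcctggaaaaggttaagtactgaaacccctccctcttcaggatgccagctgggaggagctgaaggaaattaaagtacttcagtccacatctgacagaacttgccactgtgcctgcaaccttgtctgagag
Irx3: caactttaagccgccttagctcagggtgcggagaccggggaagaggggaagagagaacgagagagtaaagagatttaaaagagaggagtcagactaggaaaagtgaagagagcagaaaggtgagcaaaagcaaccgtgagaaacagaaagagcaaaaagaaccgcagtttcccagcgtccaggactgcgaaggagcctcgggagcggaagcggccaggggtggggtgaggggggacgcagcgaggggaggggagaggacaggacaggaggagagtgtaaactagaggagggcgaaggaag
Stra8: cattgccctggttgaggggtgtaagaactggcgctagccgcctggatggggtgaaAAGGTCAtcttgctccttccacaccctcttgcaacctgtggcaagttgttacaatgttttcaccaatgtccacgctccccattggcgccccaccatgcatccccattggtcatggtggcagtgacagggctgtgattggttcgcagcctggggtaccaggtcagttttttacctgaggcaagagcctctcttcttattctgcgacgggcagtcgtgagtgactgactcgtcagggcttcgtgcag
TATAAA was found in the promoters of Gsc and Ly6c1 and in 13.6% of all 32851 promoters. AAGGTCA was found in that of Stra8 and in 4.72% of all. No match to the other motifs, which 3.98% (TCACACC) and 3.73% (ATCAAAG) of promoters hold, was found in these windows. The windows held 25 CG dinucleotides for Gsc, 7 for Ltb, 1 for Ly6c1, 14 for Irx3 and 10 for Stra8, against a median of 7 over all promoters. The matches are a description and were not tested.

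Primitive streak genes made up the list with the most calls. The lists here and below were chosen with earlier results of these data known, so their ranking is a description. Of 27 listed genes, all measured, 11 were called higher and none lower: Apln, Eomes, Evx1, Fgf8, Foxa2, Fst, Gsc, Mesp1, Mixl1, Sp5 and T. The median log2 FC of the list was 1.32, against 0.001 over all genes, and for 22 of its genes all d3 G- arrays lay above all d2 arrays, which held for 14.3% of all genes. None of its genes had all d3 G- arrays below.

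T, the T-box factor that defines the streak, was present at d2 with 10.42, 7.75 and 9.90 and reached 13.57, 12.55 and 12.69 in d3 G- cells (log2 FC 3.58 ± 0.50, adjusted p = 1.28e-05). d2 replicate 2 was the lowest by more than 2 log2 units, and the groups did not overlap. In d3 G+ cells T measured 12.99 to 13.62, a range that overlapped that of d3 G- cells, in contrast to Gsc. Mixl1, a homeobox factor of the streak needed for endoderm, was above background on none of the d2 arrays and on all d3 G- arrays, which measured 8.04, 7.77 and 7.35. Taken against the dimmest above-background signal of each d2 array, or its own value where higher, its fold was 7.1. The log2 FC of the measured values was 2.89 ± 0.34 (adjusted p = 9.96e-07). Mixl1 was higher again in d3 G+ cells, at 10.81 to 11.25. Mesp1, a bHLH factor of nascent mesoderm, rose from 5.05, 4.69 and 5.06 to 7.51, 8.43 and 8.70 (log2 FC 3.28 ± 0.72, adjusted p = 0.00399), while d3 G+ cells measured 12.42 to 13.61. Eomes, the T-box factor required for endoderm, rose from 10.02, 8.55 and 9.85 to 11.08, 11.53 and 12.14 (log2 FC 2.11 ± 0.33, adjusted p = 6.89e-05). Both of its probes passed.

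Apln, which encodes the ligand of the apelin receptor, measured 8.10, 5.46 and 7.91 at d2 and 10.47, 10.98 and 11.01 in d3 G- cells, and its log2 FC of 3.66 ± 0.46 (adjusted p = 2.93e-06) was the largest of the list. Foxa2, a pioneer factor of streak and endoderm, rose by 2.78 ± 0.63 (adjusted p = 0.0059) and Fst, which encodes the Activin antagonist follistatin, by 2.52 ± 0.35 (adjusted p = 1.34e-05). Fst was among the most even of these genes, with 10.23 to 10.69 at d2 and 12.88 to 13.20 in d3 G- cells. Fgf8, the FGF ligand of the streak, rose by 2.57 ± 0.36 (adjusted p = 1.45e-05; 2 of 3 probes passed), Evx1, a homeobox factor of the posterior streak, by 2.17 ± 0.50 (adjusted p = 0.00703), and Sp5, a Wnt target, by 2.45 ± 0.59 (adjusted p = 0.00992). Cdx2, a caudal-type factor, had a log2 FC of 2.47 ± 0.72 that did not pass (adjusted p = 0.0423): the d3 G- arrays measured 13.05, 12.10 and 10.87 against 9.92, 8.46 and 10.23 at d2. Nodal (0.15), Lefty2 (0.65) and Wnt3 (0.94) were not called. One of the 2 probes of Foxa2 passed. The calls of Evx1, Sp5, Mesp1 and Foxa2 were lost when 1 array was left out: those of Evx1 and Sp5 without any array other than d2 replicate 1 (log2 FCs of 1.81 to 2.35 and 1.90 to 2.67), Mesp1 without any array other than d3 G- replicate 1 (3.04 to 3.34) and Foxa2 without d2 replicate 1 or 2 or d3 G- replicate 2 or 3 (2.27 to 2.87). In a fit of the 6 arrays alone, Apln (adjusted p = 0.0223) and T (0.0254) missed the threshold, as did Eomes, Evx1, Fgf8, Foxa2 and Sp5.

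**Figure D2:**
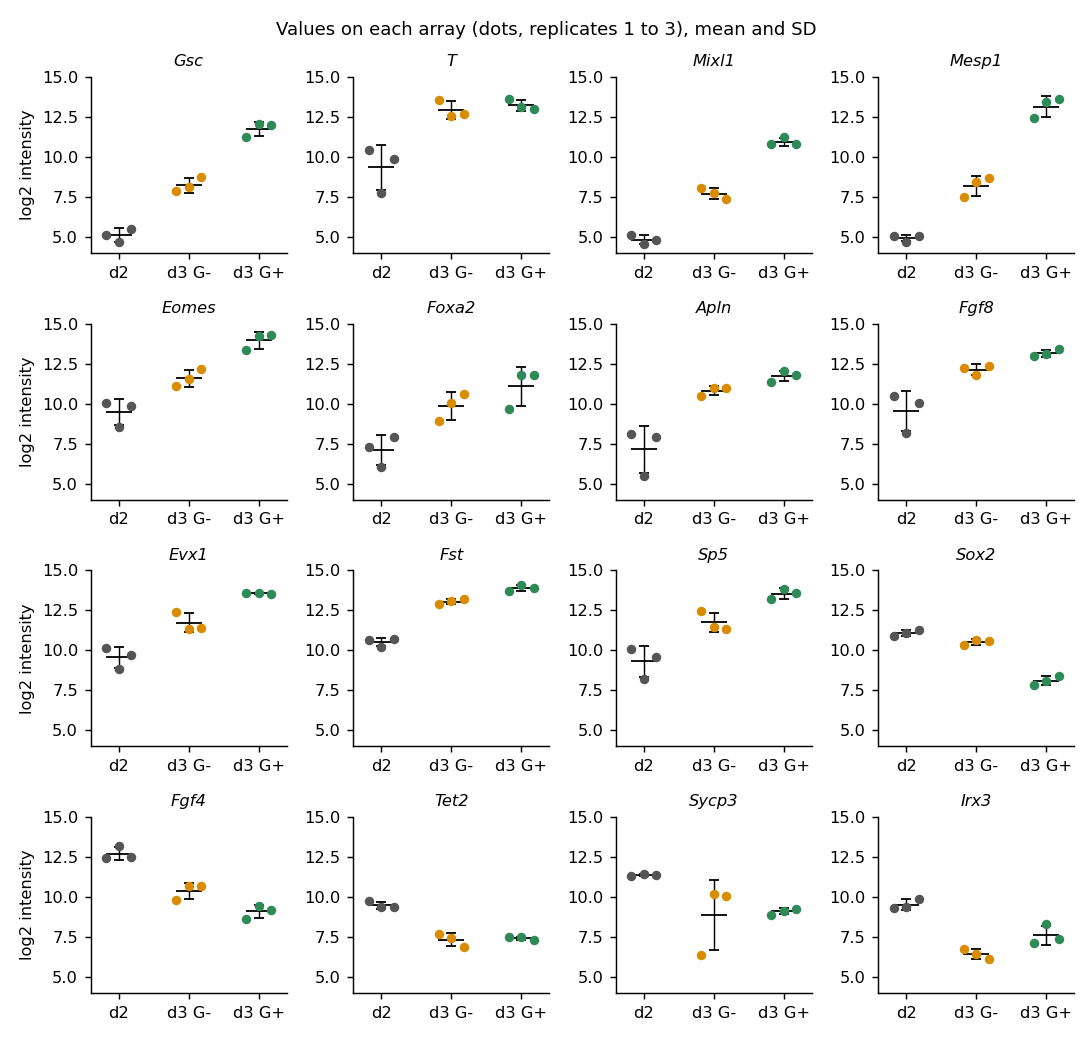
Log2 intensity on each array (dots, replicates 1 to 3 from left to right within a group) with the mean and SD (bars) for 16 genes at d2 (grey), in d3 G- (orange) and in d3 G+ cells (green). For the streak genes d3 G- lies above d2, and for all of them but T and Foxa2 every d3 G+ array lies above every d3 G- array; 1 d3 G- array of Sycp3, replicate 1 at 6.35, stands apart from the others at 10.21 and 10.04.

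In the Wnt list the genes called were 3 secreted ligands or modulators and 1 target. Of 28 Wnt genes 4 were higher and none lower, with a median log2 FC of 0.35. Rspo3, a secreted amplifier of Wnt signals, rose from 7.07, 6.37 and 6.95 to 10.96, 10.02 and 9.69 (log2 FC 3.43 ± 0.65, adjusted p = 0.000934). Wnt5a and Wnt5b, ligands known for non-canonical signalling, rose by 2.53 ± 0.48 (adjusted p = 0.000752) and 2.28 ± 0.40 (adjusted p = 0.000299), and the 4th gene was Sp5. For each of these 4 genes all d3 G- arrays lay above all d2 arrays. The same held for all 221 genes called higher by the brightest probe. Outside the list, Wnt10a was called higher (log2 FC 2.21, adjusted p = 0.00246) and Porcn lower (-1.55, adjusted p = 3.4e-06). Wnt6 (log2 FC 1.80, adjusted p = 0.0505) and Wnt11 (0.99, adjusted p = 0.0574) did not pass, and Tcf7l1, the repressive TCF of pluripotent cells, was at -1.20 (adjusted p = 0.00442), within the fold threshold. Rspo3 lost its call without d2 replicate 2 (3.21, adjusted p = 0.011) or d3 G- replicate 1 (3.06, adjusted p = 0.0155), and Wnt5a without d2 replicate 2 (2.12, adjusted p = 0.0168).

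In the BMP list 1 ligand was called higher and 1 target lower. Of 20 BMP genes Bmp2 was higher and Id1 lower, and the median log2 FC was 0.13. Bmp2, a ligand, measured 5.95, 4.90 and 5.43 at d2 and 8.23, 6.98 and 6.73 in d3 G- cells (log2 FC 1.89 ± 0.39, adjusted p = 0.00213). Id1, a direct target of BMP signals that inhibits bHLH factors, measured 11.69, 12.21 and 11.88 at d2 and 10.59, 9.44 and 9.85 in d3 G- cells (log2 FC -1.97 ± 0.41, adjusted p = 0.00236). The Id1 groups did not overlap, and d3 G+ cells (11.65 to 12.16) were at the level of d2. Its relatives Id2 (-2.33 ± 0.69, adjusted p = 0.044), Id3 (-1.24 ± 0.29, adjusted p = 0.00835) and Id4 (-1.17 ± 0.36, adjusted p = 0.0544) were lower on all d3 G- arrays without passing both thresholds, and the ligand Bmp4 had a log2 FC of 1.86 ± 0.68 (adjusted p = 0.143). Without 1 array the calls were lost for Bmp2 (d2 replicate 2 or 3 or d3 G- replicate 1, 1.43 to 1.89) and for Id1 (d2 replicate 2 or 3 or d3 G- replicate 2 or 3, -1.99 to -1.71).

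Of 26 genes of the FGF and ERK list, Fgf8 and Egr1 were higher and Fgf4 was lower (median 0.10). Fgf4, the ligand that pluripotent cells make, measured 12.44, 13.20 and 12.53 at d2 and 9.81, 10.69 and 10.67 in d3 G- cells (log2 FC -2.33 ± 0.43, adjusted p = 0.000656), so the FGF ligand called lower and the one called higher were those of pluripotent cells and of the streak. Fgf4 lost its call without d2 replicate 2 (-2.09, adjusted p = 0.0113) or d3 G- replicate 1 (-2.04, adjusted p = 0.0134). Of 23 Nodal and Activin genes only Fst was called (median 0.14), and Gdf3, a relative of Nodal in pluripotent cells, was at -1.36 ± 0.52 (adjusted p = 0.172). Of 17 Notch genes only Dll3 was called, a ligand of presomitic mesoderm, with 8.87, 9.42 and 8.59 at d2 and 10.91, 10.98 and 10.94 in d3 G- cells (log2 FC 1.98 ± 0.36, adjusted p = 0.000489; median of the list 0.31).

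Among genes outside the lists, 4 of the 6 TGF-beta ligands and receptors were called higher, a family picked after the values had been seen. These were the ligands Tgfb2 (log2 FC 3.24 ± 0.54, adjusted p = 0.000166) and Tgfb1 (2.11, adjusted p = 9.44e-07), the receptor Tgfbr2 (2.56, adjusted p = 3.09e-05) and the co-receptor Tgfbr3 (2.29, adjusted p = 0.00114). Tgfb2 measured 8.28, 6.29 and 7.50 at d2 and 11.74, 10.05 and 9.97 in d3 G- cells. Also chosen after the values had been seen, 3 of 10 Hedgehog genes were called lower: Gli1 (-1.85, adjusted p = 0.00141), Hhip (-1.80, adjusted p = 0.00413) and Ptch1 (-1.64, adjusted p = 0.00283). Gli1, the transcription factor that is itself a target of the pathway, fell from 11.25, 11.52 and 11.64 to 9.43, 9.99 and 9.45. The ligands Shh, Ihh and Dhh were not called. Leaving out 1 array ended the calls of Gli1 (d2 replicate 2 or 3 or d3 G- replicate 1, -1.82 to -1.75), Hhip (any array but d2 replicate 1, -1.94 to -1.67), Ptch1 (d2 replicate 1 or 2 or d3 G- replicate 1 or 3, -1.62 to -1.44) and Tgfbr3 (d2 replicate 2, 1.90).

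Genes of definitive endoderm were called in part. Of 19 genes 4 were higher and none lower (median 0.31): Foxa2, Gata6, Krt8 and Krt19. Gata6, a zinc finger factor of endoderm, rose from 5.01, 4.82 and 5.40 to 7.01, 7.46 and 7.35 (log2 FC 2.20 ± 0.33, adjusted p = 3.92e-05), with 1 d2 array above background and all d3 G- arrays, and d3 G+ cells were far above both, at 11.15 to 12.39. Sox17 (0.63, adjusted p = 0.655), Cxcr4 (0.79, adjusted p = 0.411) and Cer1 (0.31, adjusted p = 0.993), which mark formed endoderm, were not called. Cer1 was above background on none of the d2 arrays and on 1 d3 G- array.

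Of 22 mesoderm genes Mesp1 and Snai1 were higher (median 0.46), and the receptor Kdr of vascular mesoderm was at 0.14 ± 0.20. Snai1, a repressor of E-cadherin, rose from 7.47, 6.83 and 7.40 to 9.49, 9.26 and 9.51 (log2 FC 2.19 ± 0.34, adjusted p = 6.3e-05). In the list of adhesion and epithelial-mesenchymal transition, 3 of 25 genes were higher and none lower (median 0.42): Snai1, Cdh2, which encodes N-cadherin (log2 FC 1.73 ± 0.21, adjusted p = 2.01e-06), and Vim, an intermediate filament of mesenchyme (2.12 ± 0.31, adjusted p = 2.59e-05). Cdh2 measured 10.52, 10.41 and 10.49 at d2 and 11.93 to 12.69 in d3 G- cells, and without d3 G- replicate 1 its log2 FC was 1.49, just under the threshold. Cdh1, which encodes E-cadherin, measured 12.05, 12.04 and 12.22 at d2 and 11.96, 12.28 and 12.42 in d3 G- cells, so the ranges overlapped (log2 FC 0.12 ± 0.43, adjusted p = 0.997).

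The list of neural genes held Irx3, which had the largest fall among the genes called. Of 17 neuroectoderm genes Irx3 and Pax6 were lower and Fabp7 was higher, and the median log2 FC was -0.60. Irx3, an Iroquois homeobox factor whose promoter is shown above, fell from 9.29, 9.39 and 9.90 to 6.76, 6.41 and 6.13 (log2 FC -3.10 ± 0.35, adjusted p = 4.75e-07). ESCs had been lower still, with a mean of 5.38, so among ESCs, d2 and the G- populations Irx3 was highest at d2. Irx5, its neighbour in the same gene cluster, which is not in a list, followed the same course, with means of 4.71 in ESCs, 6.88 at d2 and 4.78 in d3 G- cells (log2 FC -2.10 ± 0.39, adjusted p = 0.000654). The other 4 Iroquois genes were not called. Pax6, a neural and eye factor, fell by 1.73 ± 0.21 on the log2 scale (adjusted p = 1.69e-06; 1 of 2 probes passed), and Sox1, the earliest neural Sox factor, was at -1.35 ± 0.19 (adjusted p = 1.98e-05), short of the fold threshold. Fabp7, a fatty acid binding protein of radial glia, rose from 5.29, 4.73 and 5.64 to 7.54, 7.34 and 7.11 (log2 FC 2.11 ± 0.30, adjusted p = 1.87e-05).

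The medians of the pluripotency lists were below 0, and the calls were in the naive list. Of 28 naive genes Fgf4 and Tet2 were lower and none higher, where 0.293% of all genes were called lower, and the median log2 FC was -0.48. All d3 G- arrays lay below all d2 arrays for 9 of the naive genes, against 12.4% of all genes, and above them for 1. Of 16 general pluripotency genes none was called, with a median of -0.49, and 10 of them had all d3 G- arrays below all d2 arrays, against 12.4% of all genes. Tet2, which oxidises methylated cytosine, fell from 9.74, 9.39 and 9.35 to 7.66, 7.44 and 6.86 (log2 FC -2.17 ± 0.26, adjusted p = 1.69e-06), and both of its probes passed. Its relatives Tet1 (-0.24) and Tet3 (-0.20) were not called, and of the 12 genes of DNA methylation and demethylation Tet2 was the only one called. Nanog (0.04 ± 0.36), Esrrb (-0.30 ± 0.56), Klf4 (0.16 ± 0.41) and Zfp42 (-0.38 ± 0.34), transcription factors of the naive network, were above background on all 6 arrays and were not called. The values of Nr0b1 (-1.99 ± 0.65, adjusted p = 0.0844), Gbx2 (-1.71 ± 0.52, adjusted p = 0.0569) and Dppa2 (-1.05 ± 0.23, adjusted p = 0.00385) were lower on all d3 G- arrays without passing both thresholds.

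In the list of formative and primed epiblast genes Cdh2 and Krt18 were higher, none of the 28 was lower, and the median was -0.04. Fgf5, a marker of epiblast that has left the naive state, measured 9.76, 10.03 and 9.90 at d2 and 10.69, 12.03 and 12.48 in d3 G- cells. The ranges did not overlap, but its log2 FC of 1.84 ± 0.51 did not pass (adjusted p = 0.03). Otx2, a factor of formative epiblast, was at 0.20 ± 0.57 (adjusted p = 0.994).

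**Figure D3:**
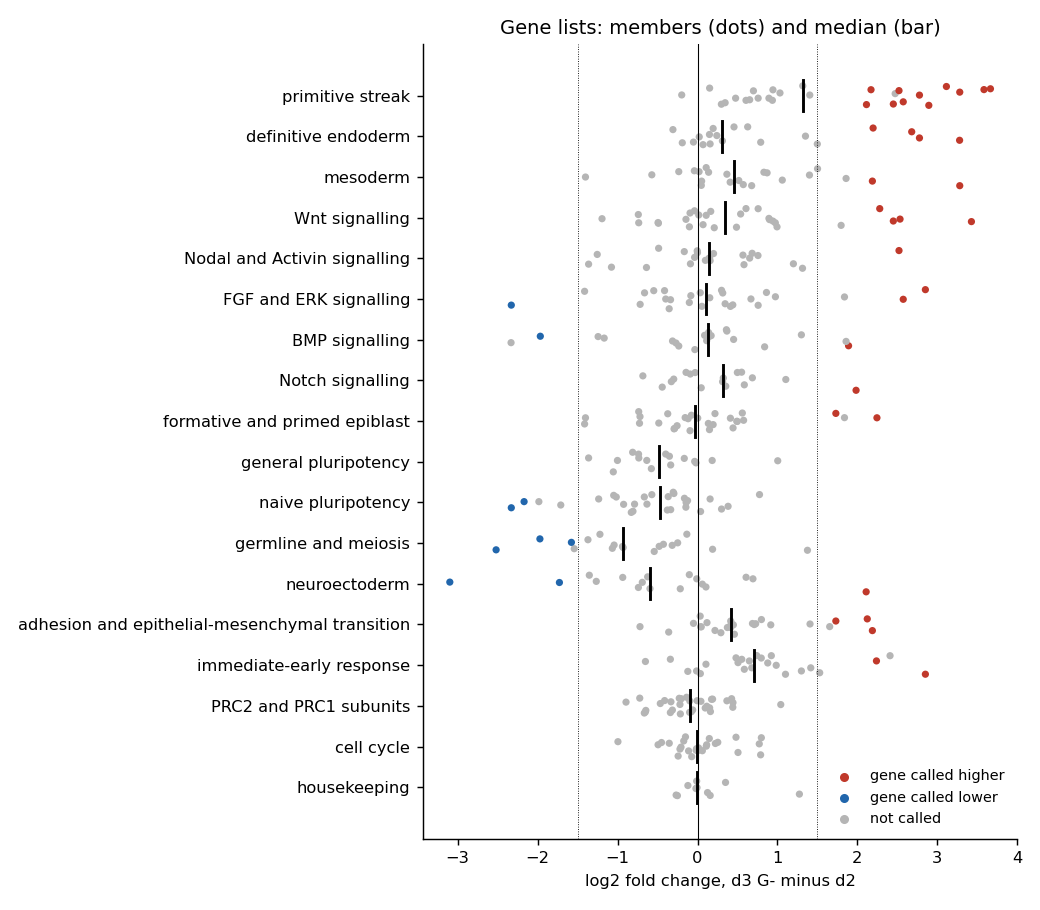
Log2 FC (d3 G- minus d2) of each measured gene (dots) of 18 lists, with the median of the list (black bar); red and blue dots are genes called higher and lower, and dotted lines mark the fold threshold of 1.5. The primitive streak list has its median at 1.32, and the germline and meiosis list has the lowest, at -0.94.

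Germline and meiosis genes had the lowest median of the lists, at -0.94. Of 18 genes Mael, Sycp3 and Zcwpw1 were lower and none was higher, and 13 had all d3 G- arrays below all d2 arrays, against 12.4% of all genes. These calls leaned on d3 G- replicate 1. Sycp3, of the synaptonemal complex, measured 11.35, 11.43 and 11.38 at d2 and 6.35, 10.21 and 10.04 in d3 G- cells (log2 FC -2.52 ± 0.53, adjusted p = 0.00244), and without d3 G- replicate 1 its log2 FC was -1.26 (adjusted p = 0.0313). Mael, of the piRNA pathway, had a log2 FC of -1.97 ± 0.45 (adjusted p = 0.00534) and of -1.07 without that array (adjusted p = 0.136). Zcwpw1, a reader of histone marks in meiosis, had -1.58 ± 0.27 (adjusted p = 0.000241) and -1.02 without that array (adjusted p = 0.00464). Sycp3 (adjusted p from 0.0106 to 0.0152) and Mael (from 0.0132 to 0.0329) also lost their calls without any 1 of the d2 arrays, and Zcwpw1 did without d2 replicate 2 (log2 FC -1.34). In a fit of the 6 arrays alone the adjusted p of Sycp3 was 0.25. Dnd1, which protects germ cells, moved the other way, at 1.38 ± 0.30 (adjusted p = 0.0032).

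Stra8, the gene induced by retinoic acid at the entry into meiosis, was not in the list and had the second largest fall among the genes called. It measured 8.45, 6.91 and 7.89 at d2 and 4.62, 5.06 and 5.05 in d3 G- cells, where 1 of 3 arrays was above background (log2 FC -2.84 ± 0.30, adjusted p = 1.69e-07). Cyp26a1, the enzyme that breaks down retinoic acid, had gone up, from 6.74, 5.97 and 6.90 to 9.90, 9.75 and 9.32 (log2 FC 3.12 ± 0.29, adjusted p = 1.73e-08), and was named after its values had been seen.

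The other called genes with the largest falls had varied roles. Insm1, a zinc finger factor of neuroendocrine cells, fell from 9.87, 10.57 and 9.93 to 7.11, 7.67 and 7.25 (log2 FC -2.78 ± 0.34, adjusted p = 1.69e-06). Mymx, which encodes a small protein of myoblast fusion, fell from 11.82, 11.53 and 11.55 to 9.19, 9.19 and 8.22 (log2 FC -2.77 ± 0.36, adjusted p = 5.44e-06). Its mean was 12.47 in ESCs and 5.52 in d3 G+ cells. Napsa, an aspartic protease, fell by 2.70 on the log2 scale, Atp1a4, a sodium pump subunit of sperm, by 2.63, the calpain Capn3 by 2.54, the endoplasmic reticulum chaperone Clgn by 2.31, the guanine nucleotide exchange factor Mcf2 by 2.31 and the unannotated 9430069I07Rik by 2.58 (adjusted p from 8.14e-08 to 0.000315). For each of these 8 genes the d3 G- arrays lay below all d2 arrays, as the rule for naming them required. Capn3 had a second accession, whose probe was not above background on any of the 6 arrays. Mcf2 lost its call without d3 G- replicate 1 (-1.87, adjusted p = 0.0102).

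Some of the genes higher in d3 G- cells had also been high in ESCs, though more had ESC means near those at d2. Of the 221 genes, 70 had an ESC mean at least 1.5 log2 units above their d2 mean, 112 had an ESC mean within 1 unit of it, and 9 had an ESC mean at least 1.5 below it. Ltb, which encodes lymphotoxin beta and whose promoter is shown above, had the largest change of the genes with a symbol: 5.6 to 8.24 at d2, lowest in replicate 2, and 11.29, 11.20 and 11.22 in d3 G- cells (log2 FC 4.15 ± 0.65, adjusted p = 7.27e-05). Its ESC mean was 10.68. S100a6, a calcium-binding protein, had an ESC mean of 14.11 and measured 9.88, 9.03 and 9.34 at d2 and 13.93, 13.48 and 12.06 in d3 G- cells (log2 FC 3.74 ± 0.59, adjusted p = 8.91e-05). Of the 11 called streak genes, Sp5 had an ESC mean (9.81) above that at d2 (9.30), and the others, among them Gsc (4.96), Mesp1 (4.84), Mixl1 (4.54), T (6.90) and Apln (5.78), had ESC means below those at d2.

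Keratins, annexins and S100 proteins were among the genes with an ESC mean at least 1.5 above that at d2. Their families were counted after the values had been seen. Of 49 keratin genes 4 were higher (Krt8, Krt18, Krt19 and Krt42) and none lower, of 12 annexins 3 (Anxa2, Anxa3 and Anxa5) and of 13 S100 genes 4 (S100a4, S100a6, S100a10 and S100a11). The median log2 FCs of the families were 0.03, 0.32 and 0.18. S100a4 lost its call without d2 replicate 2 (1.71) or d3 G- replicate 1 (1.68). Its ESC mean of 6.72 was less than 1.5 above its d2 mean of 5.46. Krt19, a keratin of simple epithelia, measured 9.67, 7.42 and 8.70 at d2 and 12.38, 11.76 and 11.48 in d3 G- cells (log2 FC 3.28 ± 0.49, adjusted p = 3.71e-05), after an ESC mean of 11.62. Its partners Krt8 (2.68 ± 0.44, adjusted p = 0.000134) and Krt18 (2.24 ± 0.36, adjusted p = 0.000123) had ESC means of 12.50 and 15.02, each within 0.5 of the d3 G- mean. Anxa1, with 8.78, 6.94 and 7.92 at d2 and 12.41, 11.59 and 9.98 in d3 G- cells, had a log2 FC of 3.45 ± 1.03 that did not pass (adjusted p = 0.0498).

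Genes known to respond to interferon were also frequent among those called higher, and they too were grouped after the values had been seen. Of 10 guanylate-binding proteins, GTPases of the interferon response, 5 were higher: Gbp2, Gbp2b, Gbp3, Gbp4 and Gbp7. Gbp3 measured 6.15, 5.08 and 5.72 at d2 and 9.98, 9.38 and 8.67 in d3 G- cells (log2 FC 3.69 ± 0.46, adjusted p = 1.99e-06), and Gbp2 measured 6.6 to 8.87 and then 11.94, 11.01 and 10.55 (log2 FC 3.36 ± 0.52, adjusted p = 6.74e-05). Of 15 genes of antigen processing and the interferon response, 5 were higher and none lower: the immunoproteasome subunit Psmb8 (3.08, adjusted p = 6.69e-06), the transporter Tap2 (2.34), Tapbp (2.60), Tapbpl (1.77) and the factor Irf1 (2.28; 1 of its 2 accessions). B2m, the light chain of class I molecules, which is in the list of housekeeping genes, had a log2 FC of 1.27 (adjusted p = 0.00121), under the fold threshold. Psmb9 (0.34) and Tap1 (0.33) were not called. The ESC means of Gbp2 (10.68), Gbp2b (9.06) and Gbp3 (7.95) were more than 2 above their d2 means (7.81, 6.50 and 5.65), while Psmb8 was 8.25 in ESCs, 7.52 at d2 and 10.59 in d3 G- cells. Gbp7 lost its call without d2 replicate 2 (1.35) or d3 G- replicate 1 (1.41). Ly6a and Ly6c1, surface proteins of the same family, were among the named genes, with log2 FCs of 3.43 ± 0.48 (adjusted p = 1.28e-05) and 3.78 ± 0.51 (adjusted p = 7.26e-06). Of 13 alpha-defensin genes, also counted after the values had been seen, 3 were higher and none lower (median 0.10). These were Defa2 (2.86), Defa3 (2.46) and Defa36 (2.21). Defa3 lost its call without d2 replicate 2 or 3 or d3 G- replicate 1. Defa36 lost it without any d2 array or d3 G- replicate 1. Gbp, Ly6 and alpha-defensin genes have near-identical copies, and a probe may detect more than 1 of them. The largest changes of all were those of a pair of RefSeq accessions without a symbol in the reference table, NM_007847 (log2 FC 4.62 ± 0.58, adjusted p = 2.93e-06) and NM_001005418 (4.52 ± 0.55, adjusted p = 1.69e-06). They measured 7.03 to 8.69 and 5.56 to 7.38 at d2, and 11.86 to 13.65 and 10.33 to 12.18 in d3 G- cells. Without a symbol, they were counted in none of these families.

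**Figure D4:**
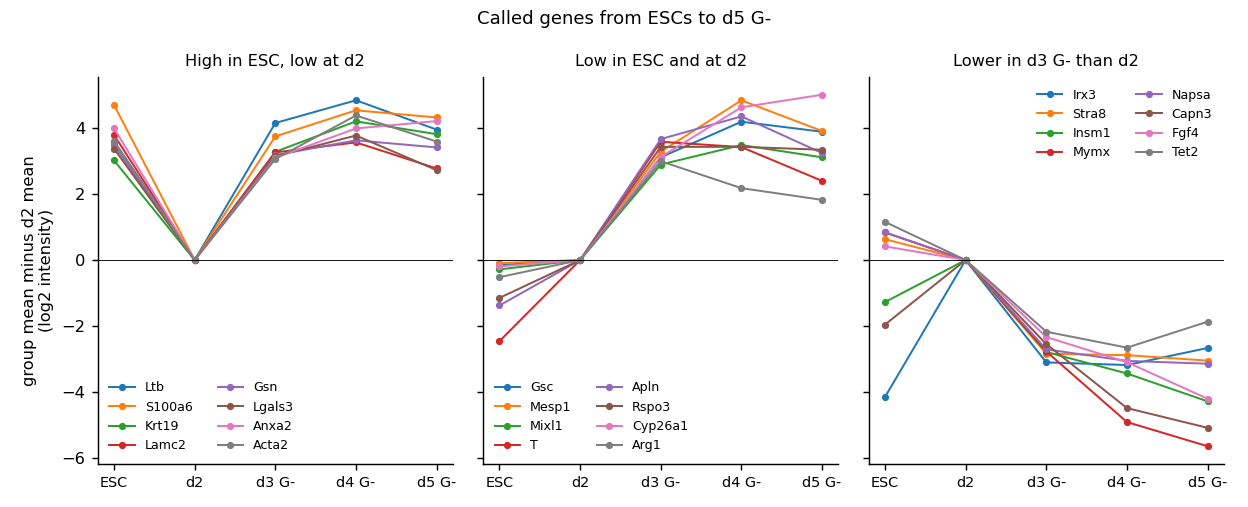
Group means minus the d2 mean (log2) for 24 called genes in ESCs, at d2 and in d3, d4 and d5 G- cells, in panels of 8. The genes on the left are low at d2 only, those in the middle rise from d2 to d3 G- and start low in ESCs, and those on the right fall from d2 to d3 G- and stay down to d5.

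Some markers of fibroblasts and of handling were called higher (1 of 13 and 2 of 24 genes), against 1.03% of all genes. Of 13 fibroblast and feeder cell genes Acta2, a smooth muscle actin, was higher (log2 FC 3.06 ± 0.66, adjusted p = 0.00346) and none lower. The median log2 FC of the list was 0.73, and for 8 of its genes all d3 G- arrays lay above all d2 arrays, against 14.3% of all genes. Acta2 measured 8.50, 6.96 and 7.05 at d2 and 11.44, 10.52 and 9.73 in d3 G- cells, and its mean in ESCs was 11.11. The log2 of the summed level of the list was 12.19 to 13.40 on the d2 arrays and 13.73 to 15.19 on the d3 G- arrays. Lum and Postn were not above background on any of the 6 arrays, and the collagen gene Col1a1 was at 1.15 ± 0.93 (adjusted p = 0.769). Without 1 array Acta2 lost its call (d2 replicate 2 or 3 or d3 G- replicate 1 or 2, 2.62 to 3.08). Of 24 immediate-early genes, which respond within minutes to serum or to stress such as dissociation, Egr1 (2.85 ± 0.48, adjusted p = 0.000193) and Ccn1 (2.24 ± 0.39, adjusted p = 0.000315) were higher and none lower, and for 14 all d3 G- arrays lay above all d2 arrays, against 14.3% of all genes. Fos had 5.67, 5.03 and 5.70 at d2 and 8.52, 7.44 and 7.66 in d3 G- cells, a log2 FC of 2.41 ± 0.67 that did not pass (adjusted p = 0.0288). The ESC means of Egr1 (9.86) and Fos (9.15) were also above those at d2. Of the 6 samples only the d3 G- cells had been sorted. The part of either set of genes in the changes above was not tested.

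Of 21 genes of visceral and primitive endoderm Gata6 and Cited1 (1.58 ± 0.36, adjusted p = 0.00562) were higher, and of 11 trophoblast genes Plet1 was (1.84 ± 0.36, adjusted p = 0.00136; 1 of 2 probes). Cited1 lost its call without d2 replicate 2 or 3 or d3 G- replicate 1 or 2 (1.29 to 1.57), and Plet1 without d2 replicate 2 (1.69, adjusted p = 0.0161). None of 14 measured genes of the 2-cell-like state was called, and 8 of them were above background on none of the d2 arrays.

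Of 24 genes of glycolysis and hypoxia only Ndrg1, a stress-responsive gene, was called (7.8 to 8.17 at d2 and 10.17, 10.36 and 10.06 in d3 G- cells; log2 FC 2.26 ± 0.32, adjusted p = 1.72e-05). None was called of 32 subunits of PRC2 and PRC1 (median -0.10), 26 cell cycle genes (-0.004), 20 genes of p53 and apoptosis (0.16), 15 Hox genes (0.64), 13 genes of threonine, glycine and serine metabolism (-0.30), 15 genes of heat shock and the unfolded protein response (-0.14) and 10 housekeeping genes (-0.01). Ezh2, the PRC2 methyltransferase, was at -0.10 ± 0.17 (adjusted p = 0.974), and its partners Eed (0.04 ± 0.13, adjusted p = 0.995) and Suz12 (0.16 ± 0.15, adjusted p = 0.821) were at levels above background on all 6 arrays. Chac1, a glutathione-degrading target of the integrated stress response, was at -3.23 ± 0.80 (adjusted p = 0.0131), with 11.96, 12.64 and 11.64 at d2 and 8.58, 9.01 and 8.97 in d3 G- cells. Its ranges were far apart, and its adjusted p just missed the threshold. Hoxd8 was the Hox gene with the largest value, at 2.26 ± 0.61 (adjusted p = 0.0249).

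The levels at later days and in the d3 G+ cells place the called genes further, without a test, since d2 or d3 G- arrays enter each of these differences. In d4 G- cells the mean of all 221 higher genes and of 59 of the 60 lower genes lay on the d3 G- side of the midpoint between d2 and d3 G-, and in d5 G- cells this held for 208 and 59. In d3 G+ cells it held for 216 and 58. The median difference from d2 was 2.13 in d3 G-, 2.45 in d4 G-, 2.33 in d5 G- and 2.61 in d3 G+ cells for the higher genes, and -1.80, -2.16, -2.46 and -2.65 for the lower genes. For 151 of the 221 higher genes the values of d3 G- and d3 G+ arrays overlapped, for 65 all d3 G+ arrays were above, and for 5 all were below. For the lower genes d3 G+ arrays were all below those of d3 G- for 31 of 60 genes, overlapped for 24 and were all above for 5, Id1 among them.

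The size of the changes was also read within each set of slides. Within replicates 1 and 2, and within replicate 3 alone, all 221 higher genes were higher and all 60 lower genes were lower in d3 G- cells. The median log2 difference of the higher genes was 2.32 in replicates 1 and 2 and 1.70 in replicate 3, and that of the lower genes was -1.91 and -1.82. A fit of replicates 1 and 2 of the untreated groups gave 225 genes higher and 33 lower. Replicate 3 alone has 1 array per group and gives no test, and the genes were chosen on all 6 arrays.

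**Figure D5:**
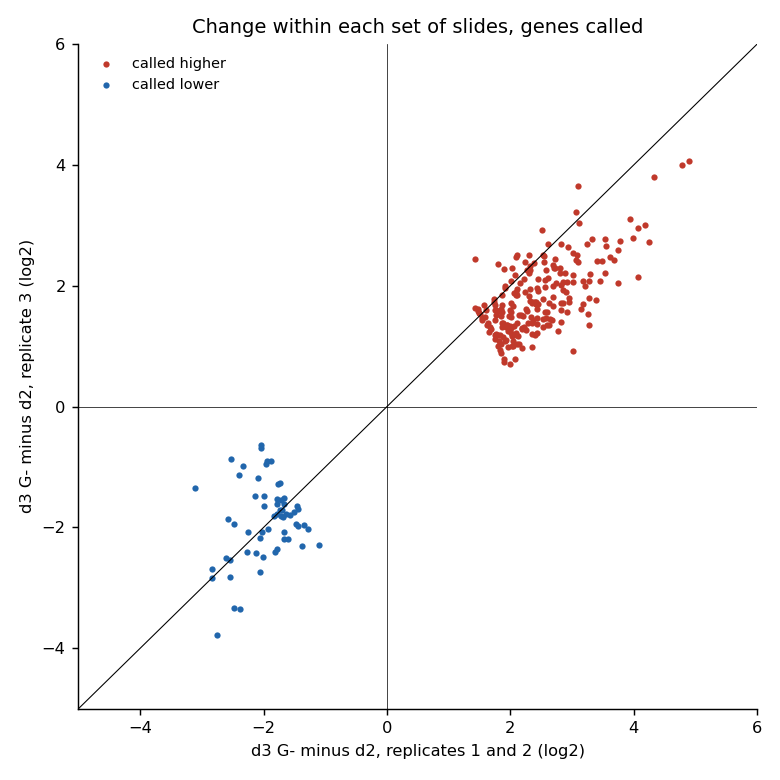
Difference of d3 G- and d2 (log2) of the genes called, in replicates 1 and 2 (x axis, mean of 2 arrays per group) and in replicate 3 (y axis, 1 array per group); the line marks equal differences. All genes called higher (red) and lower (blue) have the same sign in both sets, which follows from their 9 pairs of arrays. Most of the higher ones lie under the line.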

How the data were processed

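The authors deposited a table of log2 intensity per spot, made with limma from scanned signals by normexp background correction (offset 10) and quantile normalisation of all samples together, and the scanner files with intensity and detection per spot. Here the spots of a probe were averaged, and limma 3.58.1 (R 4.3.3) fitted a mean for each of 14 groups to the 42 arrays, with Benjamini-Hochberg adjustment over 55681 probes. Permuting 3 arrays against 3 gives no p under 0.1, so all p-values are from limma. A gene is a RefSeq accession (22201, of which 21850 had a symbol for GRCm38.p6), shown by its brightest probe and called by any probe. The other 27615 probes were left out of gene counts. A gene above background on no array of a group has a fold against the dimmest signals above background, or its own values where higher. That fold is not a strict minimum. The number of arrays limits the precision.

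Named were the 12 genes per direction with the largest change, called members of the lists, Gsc, Hhex, Pou5f1 and Sox2. The members and lists were chosen with earlier results of these data known. Other genes named, and the Gsc promoter, were chosen after their values were seen. The procedure was tested on simulated data. Alternatives covered background correction, scaling, filters, fits, blocks, gene units, thresholds and leaving out each array.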

Additional observations from a re-analysis of the deposited data

How the results depend on the processing

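The number of genes higher (228) and lower (65) in d3 G- than d2 stayed within 1.5 times of these values except as follows. With a normexp offset of 50 the counts were 149 and 29, and without background correction 42 genes were lower. With only the 6 arrays in the fit the counts were 111 and 37, and 122 and 36 with a block for replicate number added. With a log2 FC threshold of 1 the counts were 405 and 184. In the slides of replicates 1 and 2 only, 33 genes were lower. Leaving out 1 array at a time gave 138 to 276 genes higher and 33 to 149 lower; 138 and 33 came without d3 G- replicate 1, 151 higher without d2 replicate 2 and 149 lower without d3 G- replicate 2.

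Whether replicate numbers pair the samples was not settled, and the main fit did not use them. Deviations of the same-numbered arrays from their group means correlated at 0.071, 0.163 and 0.282 over genes. Those of the other pairs lay between -0.373 and 0.191, and d3 G- replicate 2 correlated best with d2 replicate 1 (0.191). With the replicate block 122 genes were higher and 36 lower in the fit of the 6 arrays, and 244 and 67 in that of the untreated arrays.

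Of 55 named genes, 19 kept their call under every alternative run and 17 lost it when 1 array was left out; 24 lost it in the fit of the 6 arrays, and Evx1 (2.07), Mael (-1.92), Mesp1 (2.95) and Sp5 (2.23) lost it with slide as a fixed block. All kept their direction. Of the genes used as checks and not called, Hhex and Pou5f1 changed sign. Hhex was at -0.10 with slide as a fixed block. Pou5f1 was at 0.23 in the slides of replicates 1 and 2, at 0.22 with array weights (added after the data were seen), and from -0.43 to 0.24 with 1 array left out, above 0 without d2 replicate 2 (0.08) or 3 (0.24) or d3 G- replicate 1 (0.05). The causes were not tested. Signal over background limits the genes that are dim at d2, and offset 50 compresses their changes by construction.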
